A study of Mus musculus with 3 samples.

Results

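Gzmk-detected, Gzmb-undetected CD8 T cells were studied in single-cell RNA libraries of immune cells from mouse mammary tumours. They are barcodes with a CD8 and a CD3 or Trac transcript, at least 1 Gzmk UMI and 0 Gzmb UMIs. A UMI is a molecular tag that marks a single captured RNA molecule. There were 200 such cells among 14336 barcodes, with 69 in replicate 1, 86 in replicate 2 and 45 in replicate 3. The gate required at least 200 genes, at most 10% mitochondrial UMIs, at least 1 UMI of Cd8a or Cd8b1, at least 1 UMI of Cd3d, Cd3e, Cd3g or Trac, and 0 UMIs of Cd4 and Foxp3. Limits on myeloid transcripts were added, with S100a8 and S100a9 under 0.5% of UMIs, C1q genes at 1 UMI or fewer and H2-Ab1 at 2 UMIs or fewer. The Gzmk and Gzmb UMI counts therefore chose the cells, and their levels below are descriptions.

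The 3 libraries carry the same labels and form a single group, so the study contains no treated and untreated arm. Each came from a tumour grown in the mouse mammary gland for 4 weeks from the injected 2208L line and collected at 0.7 to 1 cm, from which live CD45-positive, DAPI-negative cells were sorted. CD45 marks blood-derived cells, although the sample labels give the cell type as tumor. The labels state no strain, sex or age of the mice. They also do not say whether the 3 libraries come from separate mice. With the library as a block, p-values measure how differences between classes of cells vary from library to library, which may be technical. That spread was estimated jointly over the 4 classes described below. Fewer cells of a type and less RNA per cell cannot be told apart in sums of UMIs.

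The libraries held 4424, 6036 and 3876 barcodes with 9846404, 15259236 and 9445914 UMIs. The T-cell gate held 3268 barcodes and its CD8 part 1164. Another 3 classes served for comparison, namely 544 CD8 cells with neither granzyme detected, 420 Gzmb-detected CD8 cells, of which 190 also held Gzmk, and 2084 other T cells without Cd8a or Cd8b1. Summed over the cells, the Gzmk-detected Gzmb-undetected class held 102468, 136488 and 115373 UMIs in replicates 1 to 3. Levels are given as CPM, the UMIs of a gene per 1000000 UMIs of the class in that library, always in the order of replicates 1, 2 and 3.

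Granzymes are serine proteases that cytotoxic lymphocytes store in granules. Granzyme B enters target cells with the help of perforin and cleaves caspases and their substrates, whereas granzyme K has a trypsin-like specificity and is a weaker inducer of cell death. In mouse and human tissues, Gzmk transcripts are known from CD8 T cells of the effector-memory and pre-exhausted type, often with the T-box factor Eomes and the chemokine Ccl5, while Gzmb marks effector cells and activated killer cells.

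Gzmk (ENSMUSG00000042385) lies on chr13:113171608-113225908 of GRCm38, minus strand, and Gzmb (ENSMUSG00000015437) on chr14:56258838-56262260, minus strand, both annotated as protein-coding genes. The 250 bases before each RefSeq start are shown because these 2 genes define the cells. They come from RefSeq's GRCm38.p6, from chr13:113180966-113181215 and chr14:56262335-56262584, and read 5′ to 3′ on the minus strand, with the motif matches in capitals.
Gzmk: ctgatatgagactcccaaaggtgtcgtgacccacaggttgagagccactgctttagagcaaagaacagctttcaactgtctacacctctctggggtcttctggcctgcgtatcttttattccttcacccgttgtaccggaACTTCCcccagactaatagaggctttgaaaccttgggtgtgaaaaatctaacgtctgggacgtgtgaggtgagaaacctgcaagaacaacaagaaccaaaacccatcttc
Gzmb: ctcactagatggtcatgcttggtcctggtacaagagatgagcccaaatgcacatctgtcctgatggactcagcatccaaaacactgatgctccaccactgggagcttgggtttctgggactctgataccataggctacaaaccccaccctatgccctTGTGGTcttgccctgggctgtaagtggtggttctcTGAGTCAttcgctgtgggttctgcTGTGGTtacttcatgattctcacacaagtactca
The Gzmk window lies inside the gene interval given above, so the RefSeq start used here is not the start of that interval. For Gzmb the window closes at 56262335, whereas the interval begins at 56262260 on the minus strand, so its RefSeq start differs too. The positions below count from the RefSeq starts. The motifs were searched on both strands, and none of the matches overlap. The Gzmk window held 1 match of the ETS core (GGAAGT), on the opposite strand 110 to 105 bases before the start. The Gzmb window held 2 matches of the RUNX core (TGTGGT), 93 to 88 and 34 to 29 bases before the start, and 1 AP-1 match (TGANTCA) at 58 to 52. Neither window held the T-box half-site AGGTGTGA. Among 32851 promoter windows of the same length, 19.7% held the ETS core, 14% the RUNX core, 6.75% the AP-1 motif and 1.12% the T-box half-site, and a match is a description of letters only.

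The cells carried their defining transcripts, mostly at 1 molecule each. Of the 200 cells, 133 (66.5%) held 1 Gzmk UMI, 44 held 2, 11 held 3 and 12 held 4 or more, with a maximum of 6. Gzmk reached 849, 1040.4 and 728 CPM in the Gzmk-detected Gzmb-undetected cells, against 605, 384 and 449 CPM in Gzmb-detected CD8 cells, which also include cells without it. A single CD8 UMI admitted 72 of the cells (36%), 152 held Cd8a, 141 held Cd8b1 and 93 held both. A T-cell receptor beta constant transcript (Trbc1 or Trbc2) was present in 181 of the 200 (90.5%), Trdc of gamma-delta T cells in 2, and the natural killer (NK) cell genes Ncr1 or Klrb1c in 1.

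The 3 CD8 markers (Cd8a, Cd8b1 and Gzmk) summed to 2244.6, 2659.6 and 2556.9 CPM. Of the 11 gamma-delta and interleukin-17 markers 7 were at 0, Il17a and Trdv4 among them. Their sum ranged from 139 to 260.0 CPM, against 326 to 415 CPM in CD8 cells with neither granzyme and 1478 to 3477 CPM in other T cells. Neutrophil markers summed to 615 to 1064 CPM in the Gzmk-detected Gzmb-undetected cells, with 1 of 10 (Retnlg) at 0, against 527 to 966 CPM in CD8 cells with neither granzyme. Macrophage markers summed to 165 to 300.4 CPM with 5 of 10 at 0 (Fcgr1, Csf1r, Adgre1, Ms4a7 and Mrc1), against 236 to 675 CPM. NK-cell markers summed to 347 to 959.8 CPM with Klrb1c, Klra8 and Klra4 of the 10 at 0, against 256 to 729 CPM in CD8 cells with neither granzyme. Dendritic-cell markers had 4 of 10 at 0 (69.3 to 476 CPM, against 140 to 326 CPM), B- and plasma-cell markers 5 of 8 (69.3 to 125 CPM, against 78.9 to 118 CPM), CD4 and regulatory T-cell markers 2 of 8 (217 to 361 CPM, against 290 to 529 CPM) and epithelial markers 7 of 8 (0 to 7.33 CPM, against 9.65 to 448 CPM). The CD8 markers, the absence of Cd4 and Foxp3 and the caps on myeloid genes were set by the gate, so they do not check the label. The T-cell receptor beta and delta transcripts given above were not used by it. Traces of myeloid RNA were present in every class. The part of that RNA in the results was not tested beyond an alternative without UMIs of S100a8, S100a9, the C1q genes and H2-Ab1. That alternative is called without myeloid UMIs below, although UMIs of other myeloid genes could remain. Its count of calls is not given for the comparison with Gzmb-detected CD8 cells.

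Gzmk-detected Gzmb-undetected cells made up 19.2% (95% Clopper-Pearson interval 15.3 to 23.7) of the CD8 gate in replicate 1, 14.9% (12.1 to 18.1) in replicate 2 and 19.7% (14.7 to 25.4) in replicate 3. The mean was 17.9 ± 2.61% (SD, n = 3), and the intervals, which cover counting error only, overlapped. In an alternative, barcodes below 1000 UMIs were left out and the rest thinned to 1000 UMIs. The CD8 classes were then drawn again from the thinned Gzmk and Gzmb counts, so cells could change class. The share over all libraries was then 13.7% (129 of 940), against 17.2% (200 of 1164) unthinned, on unlike sets of barcodes. Of the 200 cells 20, 18 and 1 lay below 1000 UMIs. Values called thinned to 1 depth below come from classes drawn this way, so depth and change of class cannot be told apart. The median depth was 1358.5 UMIs per cell in the Gzmk-detected Gzmb-undetected class, against 1507.5 in CD8 cells with neither granzyme, 1358.5 in Gzmb-detected CD8 cells and 1443 in other T cells.

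Gzmb transcripts were detected more often in CD8 cells with Gzmk than without it. Gzmb was detected in 47.3%, 47.6% and 52.6% of the Gzmk-detected CD8 cells, against 33.8%, 25.5% and 35.8% of the Gzmk-undetected ones in replicates 1 to 3. The shares of the Gzmk-detected cells were higher in every library and the 2 sets of values did not overlap. After thinning, with the classes drawn again among the barcodes kept, the 2 shares were 44.4% of 232 and 21.3% of 708 over all libraries. For background, 0.242% of neutrophil-gate barcodes held a Gzmb UMI. No test was made, since Gzmk and Gzmb chose the cells. On the rule's other edges, 97 barcodes missed the class only for want of a CD8 UMI, 190 only for a Gzmb UMI and 544 only for want of a Gzmk UMI.

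Cells just inside and just outside the granzyme thresholds were set side by side for genes described below. Hmgb2 stood at 1324 CPM in cells with 1 Gzmk UMI, 2583 CPM with 2 and 3687 CPM with 3 or more, against 1458 CPM in Gzmk-detected cells with 1 Gzmb UMI and 837 CPM in cells with neither granzyme. Eomes stood at 80.8, 104 and 146 CPM in the same 3 steps, against 97.7 CPM with 1 Gzmb UMI and 25.8 CPM with neither. Xcl1 ran the other way, at 256, 117 and 36.5 CPM, against 181 CPM with 1 Gzmb UMI and 998 CPM with neither. In the 3 steps of 133, 44 and 23 cells, Eomes rests on 18, 8 and 8 UMIs and Xcl1 on 57, 9 and 2. The median depth rose along the same steps, at 1305, 1405 and 1651 UMIs per cell. Ms4a4b rose like Hmgb2, at 1741, 2557 and 2847 CPM, against 1654 CPM with 1 Gzmb UMI and 1016 CPM with neither. Cxcr3 (130, 170 and 237 CPM, against 84.0 CPM with neither) and Cd7 (292, 365 and 566 CPM, against 188 CPM) also rose. Ccl5, Slamf7 and Tcf7 did not step away from the level with neither granzyme in this way. Ccl5 stood at 18879, 17678 and 12137 CPM, against 27527 CPM with 1 Gzmb UMI and 12150 CPM with neither. Slamf7 stood at 62.8, 104 and 18.3 CPM and Tcf7 at 22.4, 65.2 and 18.3 CPM, on 1 UMI each in the cells with 3 or more Gzmk UMIs. Ly6a fell, at 852, 718 and 511 CPM, against 398 CPM with neither. Gzma (126, 26.1 and 73.0 CPM) and Bst2 (462, 457 and 821 CPM) did not rise at each step. In the 230 cells with Gzmb and no Gzmk, Eomes stood at 80.5, Ms4a4b at 1685, Cd7 at 437 and Xcl1 at 135 CPM. Hmgb2 stood at 771 and Cxcr3 at 66.2 CPM there, below their levels with neither granzyme. These are pooled levels of cells chosen by Gzmk and Gzmb and carry no test.

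Against CD8 cells with neither granzyme, the Gzmk-detected Gzmb-undetected cells had more Ctla2a, Sh2d1a, Ms4a4b and Hmgb2, and less Xcl1, Ifitm1, Car2, Bcl2 and ribosomal protein transcripts. UMIs were summed per library and class and tested with edgeR's quasi-likelihood test across 2726 genes, with Benjamini-Hochberg adjusted p under 0.05 as the call. The test called 68 genes (2.49%), with 10 higher (0.367%) and 58 lower (2.13%), and 67 of the 68 moved the same way in 3 of 3 libraries. With library totals in place of TMM, edgeR's default scaling by trimmed means, it called 37, of which 19 were higher and 18 lower. The calls depend on replicate 1, since without it 0 genes were called and 316 had an unadjusted p under 0.05. A fit of these 2 classes alone, on fewer sums and 1741 genes, also called 0, with 198 at an unadjusted p under 0.05. Without barcodes holding a UMI of the gate's myeloid genes, which left 106 of the 200 cells, 6 genes were called.

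Among the higher genes, Ctla2a (chr13:60934155-60936625, minus strand), which encodes an inhibitor of cathepsin-type proteases, measured 693, 439.6 and 607 CPM in the Gzmk-detected Gzmb-undetected cells, against 251, 207 and 261 CPM in CD8 cells with neither granzyme. Every library of the first class lay above every library of the other, and the log2 difference was 1.17 ± 0.21 (SE, adjusted p = 0.00601). It was called in 12 of 15 alternatives, although 25 of its 201 UMIs came from 1 cell. Sh2d1a, the SAP adaptor of SLAM-family receptors, measured 293, 271 and 303 CPM, against 164, 98.3 and 142 CPM. The groups did not overlap (log2 difference 1.13 ± 0.26, adjusted p = 0.021), but it was called in 6 of 14 alternatives.

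Ms4a4b, a tetraspan membrane protein of T cells, measured 2498, 2257 and 1525 CPM in the Gzmk-detected Gzmb-undetected cells, against 1086, 951 and 1185 CPM in CD8 cells with neither granzyme. The ranges were separate (log2 difference 0.87 ± 0.18, adjusted p = 0.0132), and it was called in 13 of 15 alternatives. Itm2b, a transmembrane protein, measured 1308, 1121 and 1343 CPM, against 820.4, 668 and 829 CPM, a log2 difference of 0.60 ± 0.12 (adjusted p = 0.0132), called in 12 of 15 alternatives. The actin-binding coronin Coro1a (log2 difference 0.50 ± 0.11, adjusted p = 0.0156) and the ubiquitin gene Ubb (0.47 ± 0.09, adjusted p = 0.0105) were also higher without overlap, and were called in 8 of 15 and 10 of 15 alternatives. Fos, an immediate-early AP-1 subunit, measured 390.4, 462 and 494 CPM, against 256, 249 and 267 CPM (log2 difference 0.69 ± 0.17, adjusted p = 0.0377), and was called in 4 of 15 alternatives. The other 2 higher genes lay outside the rule for named genes and were singled out after their values were seen. They were the predicted gene AW112010, at 0.57 ± 0.13, and Hspa1a, a heat-shock chaperone with 20 UMIs in 3 cells.

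Hmgb2, a chromatin protein abundant in dividing cells, measured 2098, 1040.4 and 2929.6 CPM in the Gzmk-detected Gzmb-undetected cells, against 1115, 847 and 456 CPM in CD8 cells with neither granzyme. It was higher in each library, although replicate 2 of the first class lay below replicate 1 of the other (log2 difference 1.16 ± 0.27, adjusted p = 0.0206). Without replicate 3 the log2 difference was 0.56 and Hmgb2 was not called. Thinned to 1 depth it was 0.62 and also not called. It was the single called gene among 17 tested proliferation genes, all 17 of which lay above 0 with a median log2 difference of 0.69, beside a median of -0.01 over all genes.

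Proliferating cells were counted as those with UMIs of at least 2 of 10 genes of the list (Mki67, Top2a, Birc5, Cdk1, Ccna2, Ccnb2, Rrm2, Tyms, Tk1 and Ube2c), as a description with no test. They made up 11.6%, 9.30% and 20.0% of the Gzmk-detected Gzmb-undetected cells, against 6.62%, 9.45% and 2.33% of CD8 cells with neither granzyme. Replicate 2 showed no excess, and the excess in replicate 3 rests on 9 of 45 cells against 2 of 86. In 3.02% of other T cells, over all libraries, the same criterion was met. Cells were also thinned to 1000 UMIs with the classes kept as first drawn, which left 161 of the 200 cells. The shares over all libraries were then 11.2%, 6.04%, 6.93% and 2.06% in the Gzmk-detected Gzmb-undetected, neither-granzyme, Gzmb-detected and other T cells.

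**Figure D1:**
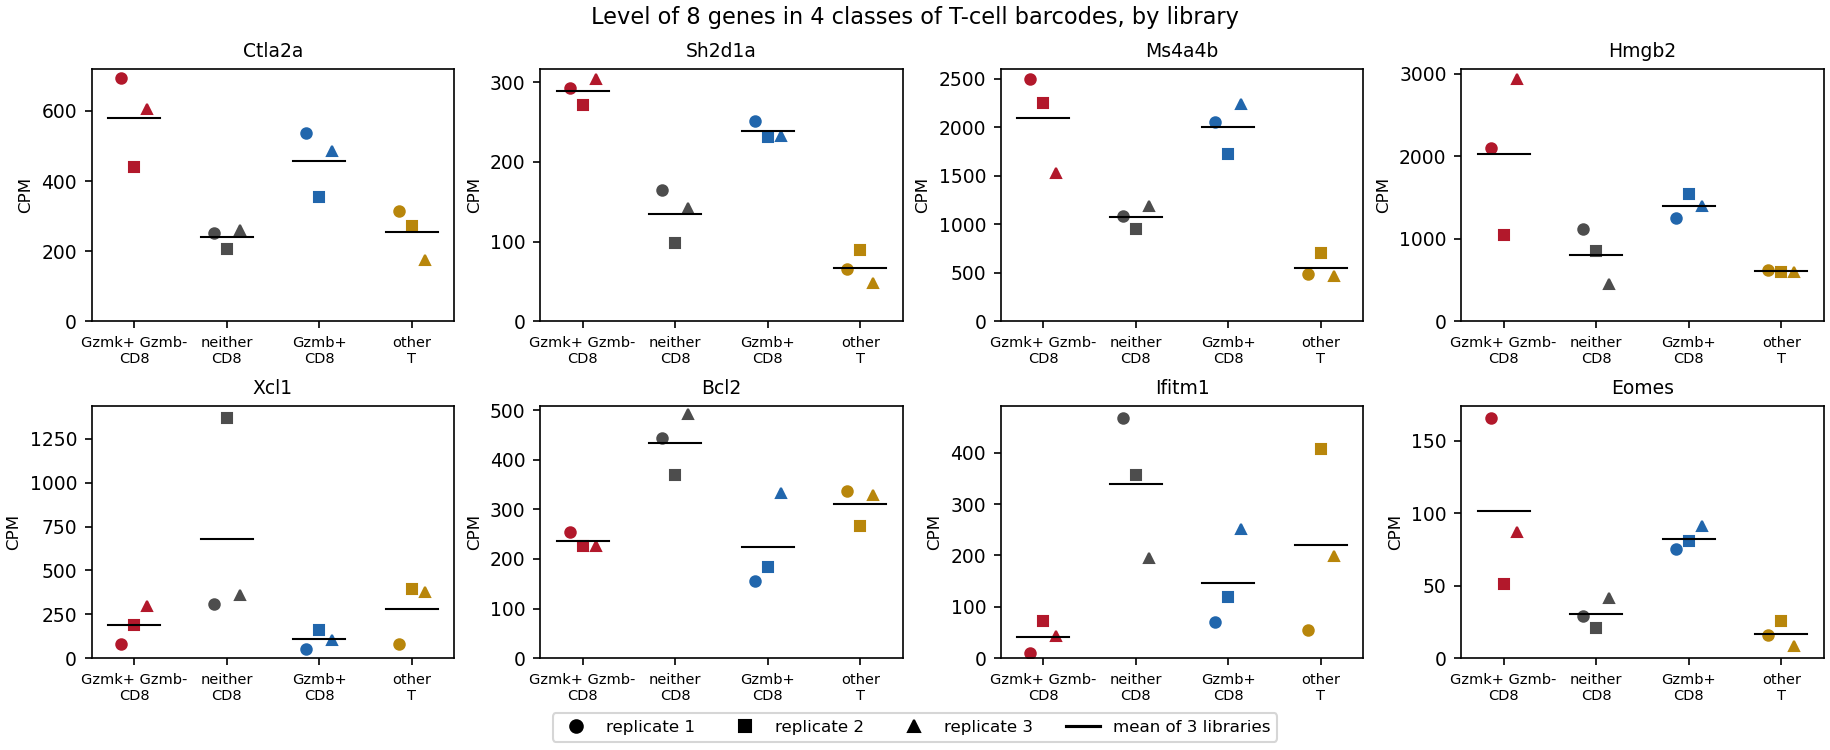
Level of 8 genes (CPM, vertical axes starting at 0) in 4 classes of T-cell barcodes; points are the 3 libraries and bars their means. Ctla2a, Sh2d1a and Ms4a4b lie higher in every library of the Gzmk-detected Gzmb-undetected cells than in any library of CD8 cells with neither granzyme, and Bcl2 and Ifitm1 lower. Eomes did not pass the test.

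Among genes that fell, Xcl1 (chr1:164931644-164935527, minus strand), the chemokine that draws XCR1-bearing dendritic cells, measured 78.1, 190.5 and 295 CPM in the Gzmk-detected Gzmb-undetected cells, against 309, 1371 and 361 CPM in CD8 cells with neither granzyme. All 3 values lay below the lowest of the other class (log2 difference -1.98 ± 0.36, adjusted p = 0.00735). The size rests on replicate 2 of the neither-granzyme class, where 921 UMIs came from 85 cells, and without replicate 2 the log2 difference was -1.13 and was not called. Ifitm1, an interferon-induced membrane protein, measured 9.76, 73.3 and 43.3 CPM, against 468, 356 and 195.5 CPM (log2 difference -3.14 ± 0.76, adjusted p = 0.031). The ranges were far apart, but it was called in 8 of 14 alternatives, and its 16 UMIs lay in 9 of the 200 cells.

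Bcl2, the survival factor that long-lived T cells keep, measured 254, 227 and 225 CPM in the Gzmk-detected Gzmb-undetected cells, against 444, 369 and 492 CPM in CD8 cells with neither granzyme. The groups did not overlap (log2 difference -0.98 ± 0.21, adjusted p = 0.0155). It was called in 9 of 15 alternatives, and was -0.58 and not called when cells were thinned to 1 depth. Car2, a carbonic anhydrase, measured 9.76, 51.3 and 17.3 CPM, against 101, 138 and 88.9 CPM, a log2 difference of -2.06 ± 0.41 (adjusted p = 0.012), called in 9 of 12 alternatives. Furin, a proprotein-cleaving protease, measured 19.5, 14.7 and 8.67 CPM, against 82.0, 40.2 and 35.5 CPM (log2 difference -1.96 ± 0.48, adjusted p = 0.0368). Each of these ranges was separate, but Furin was called in 5 of 13 alternatives. Ifitm3 (log2 difference -1.28 ± 0.29, adjusted p = 0.021), the chromatin protein Morf4l2 (-1.98 ± 0.49, adjusted p = 0.0373) and the mitochondrial ribosomal protein Mrpl36 (-1.31 ± 0.34, adjusted p = 0.045) were also lower. They were called in 6 of 14, 4 of 10 and 3 of 14 alternatives, Ifitm3 overlapping between the classes.

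Spp1, which encodes osteopontin, measured 9.76, 29.3 and 43.3 CPM, against 24.1, 417 and 101 CPM (log2 difference -2.81 ± 0.59, adjusted p = 0.0132), and the ranges overlapped. Replicate 2 of the neither-granzyme class held 280 of that class's 302 Spp1 UMIs, and without replicate 2 the log2 difference was -1.21 and was not called. Thinned to 1 depth it was -2.31 and not called. Epithelial transcripts were present in 1 UMI in all Gzmk-detected Gzmb-undetected cells, against 301 UMIs in 14 cells of the neither-granzyme class in replicate 2 (252 of them in 1 cell), and their part in the result was not tested beyond leaving such cells out. Without them, an alternative chosen after seeing the data, the log2 difference was -1.92 and was not called. Wfdc18 is outside the rule for named genes and was singled out after its values were seen, since 857 of its 908 UMIs in the neither-granzyme class came from 1 cell.

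Ribosomal protein genes were most of the genes that fell. Of 81 tested, 47 were called lower and 0 higher, 80 lay below 0, and the median log2 difference was -0.31. This set was formed by gene name after the values were seen and carries no test of its own. It includes Rps19bp1, named for binding Rps19 and not itself a ribosomal protein, which lay above 0 at 0.0136. Rps19bp1 stays in the counts and shares given here. Ribosomal protein genes took 31.5%, 32.6% and 30.7% of UMIs in the Gzmk-detected Gzmb-undetected cells, against 36.7%, 37.4% and 36.2% in CD8 cells with neither granzyme. The shares, 31.6 ± 0.93% and 36.8 ± 0.631% (SD, n = 3), did not overlap. With library totals as the scaling 13 of them were called lower. Without UMIs of the gate's myeloid genes 3 were, with shares of 34.2%, 34.4% and 29.2%, against 36.5%, 38.0% and 37.5%. Gzmb-detected CD8 cells had a like share of 30.5%, 31.2% and 28.8%, and other T cells of 34.3%, 33.9% and 33.4%.

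**Figure D2:**
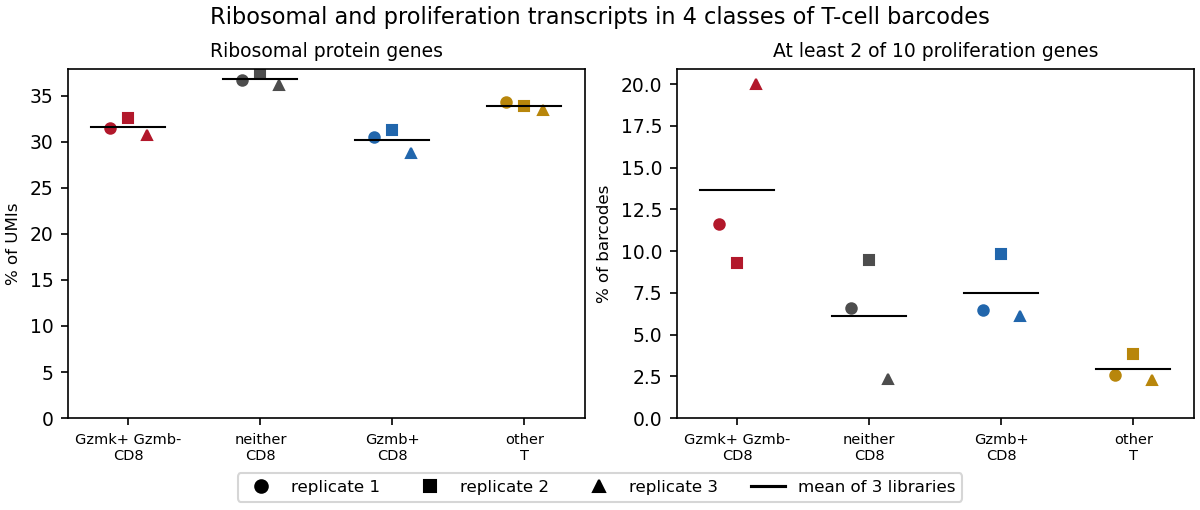
Left, percentage of UMIs in 86 ribosomal protein genes; right, percentage of cells with UMIs of at least 2 of 10 proliferation genes, for 4 classes; points are the 3 libraries and bars their means. The ribosomal share of the Gzmk-detected Gzmb-undetected cells, 31.6 ± 0.93%, lies below the 36.8 ± 0.631% of CD8 cells with neither granzyme in every library, while the proliferating share is no higher in replicate 2, at 9.30% against 9.45%.

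Most genes usually named with Gzmk did not separate the 2 classes by the test. Eomes, the T-box factor of memory and killer cells, measured 166, 51.3 and 86.7 CPM in the Gzmk-detected Gzmb-undetected cells, against 29.0, 20.8 and 41.5 CPM in CD8 cells with neither granzyme. The ranges did not overlap, but the log2 difference of 1.78 ± 0.52 missed the threshold (adjusted p = 0.0788). Thinned to 1 depth, which also redrew the classes, it was 0.24. Eomes was detected in 26 of the 200 cells.

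Across the lists, 0 of 9 cytotoxic genes, 0 of 13 effector-memory genes and 0 of 13 homing receptors and integrins passed the test. All 13 homing genes lay above 0, with a median log2 difference of 0.44, and so did 16 of 17 interferon-stimulated genes (median 0.43, 0 called). Bst2, an interferon-induced membrane protein, measured 498, 667 and 355 CPM, against 309, 275 and 319.9 CPM, without overlap (log2 difference 0.69, adjusted p = 0.0903). None of 10 checkpoint genes lay above 0 (median -0.33, 0 called). Of 10 tested naive and memory genes Bcl2 was called and 2 lay above 0 (median -0.65).

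Tcf7, the factor of stem-like T cells, measured 0, 44.0 and 43.3 CPM in the Gzmk-detected Gzmb-undetected cells, against 72.4, 59.5 and 124 CPM in CD8 cells with neither granzyme, a log2 difference of -1.46 ± 0.46 (adjusted p = 0.103). The ranges were separate but Tcf7 rests on 11 UMIs. The killer-cell receptors (0 of 6) and the transcription factors (0 of 17) had no call. Tissue-residency genes (1 of 8) and cytokine genes (1 of 9) had Xcl1 alone, T-cell receptor signalling genes (1 of 24) had Ms4a4b and immediate-early genes (1 of 14) had Fos. Prf1, which encodes perforin, had 3 UMIs in the 200 cells and was not testable.

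Against Gzmb-detected CD8 cells no difference passed the test, although Ccl5 and several interferon-stimulated genes ran lower in the Gzmk-detected Gzmb-undetected cells. EdgeR's quasi-likelihood test called 0 of 2726 genes (0%), with 134 at an unadjusted p under 0.05. DESeq2 called 0, with 78 at an unadjusted p under 0.05. Without replicate 2 edgeR called 5 genes, all lower, and a fit of these 2 classes alone called 1. Ccl5, a chemokine of effector T cells, measured 16581, 21372 and 13972 CPM, against 27992, 25309.7 and 28242 CPM. The ranges were separate, with a log2 difference of -0.67 ± 0.22 (adjusted p = 0.872).

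Gbp4, an interferon-induced GTPase, measured 48.8, 87.9 and 43.3 CPM, against 145, 135 and 182 CPM (log2 difference -1.30 ± 0.33), and at 0.577 had the lowest adjusted p of all genes. Icos, a costimulatory receptor, measured 87.8, 58.6 and 52.0 CPM, against 139, 144 and 111 CPM (log2 difference -1.06 ± 0.32). The activation marker Cd69 measured 176, 154 and 208 CPM, against 321, 285 and 252 CPM (-0.70 ± 0.21). None of these 3 overlapped between the classes, and none was called. Of 17 interferon-stimulated genes 1 lay above 0 (median -0.29), while 15 of 17 proliferation genes did (median 0.45), beside a median of -0.0047 over all genes. Gzma, the other main granzyme, measured 9.76, 242 and 0 CPM, against 241, 243 and 50.4 CPM, overlapping between the classes (log2 difference -0.99 ± 0.67). Nkg7, a granule membrane protein, differed by -0.14 ± 0.13, Bcl2 by 0.08 ± 0.23 and Eomes by 0.22 ± 0.44, each less than or close to its error.

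The genes that separated the cells from the neither-granzyme class were set beside their values here, the 2 comparisons sharing the Gzmk-detected Gzmb-undetected sums. Ctla2a measured 536, 354 and 484 CPM in Gzmb-detected CD8 cells, a log2 difference of 0.33 ± 0.20, and Hmgb2 measured 1254, 1538 and 1397 CPM, a log2 difference of 0.48 ± 0.26. Both overlapped with the Gzmk-detected Gzmb-undetected cells, and 0 of 81 ribosomal protein genes was called (median 0.07). A p that misses the threshold does not show that the 2 kinds of cell are alike.

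**Figure D3:**
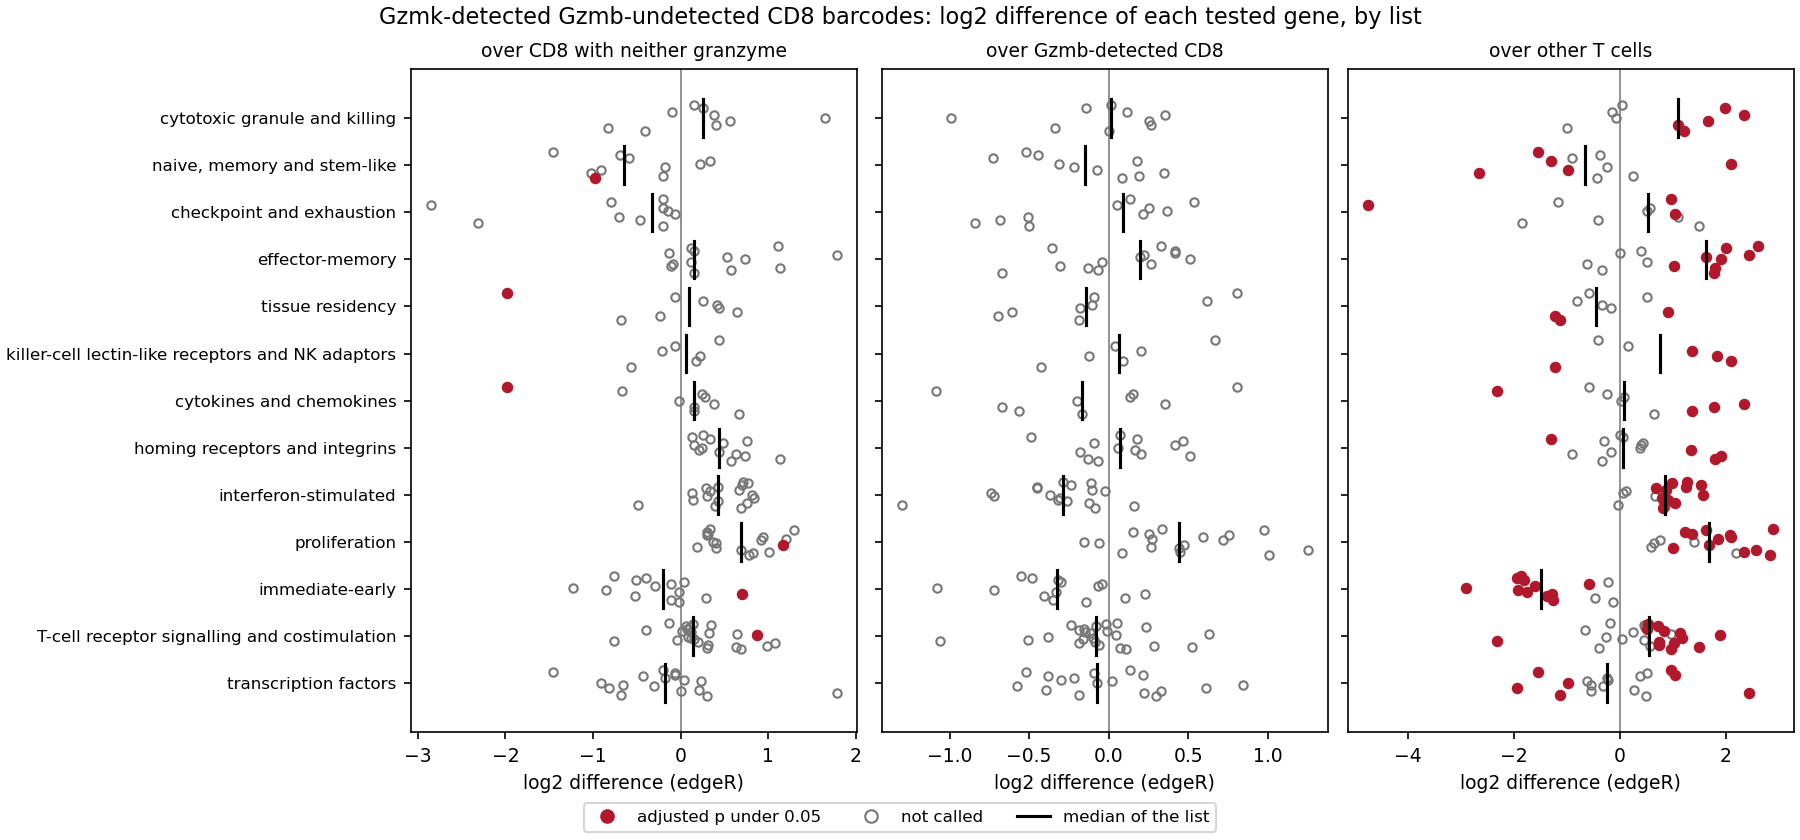
Log2 difference (edgeR, horizontal axes) of each tested gene in 13 lists, for the Gzmk-detected Gzmb-undetected cells over CD8 cells with neither granzyme, over Gzmb-detected CD8 cells and over other T cells; filled points were called, open points were not, and bars are list medians. Calls are few in the first panel, absent in the second and frequent in the third, where 12 of 17 proliferation genes were higher and 11 of 14 immediate-early genes lower.

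Against other T cells, the Gzmk-detected Gzmb-undetected cells had more cytotoxic, effector-memory, interferon-stimulated and proliferation transcripts, and less Il7r, Icos, immediate-early and interleukin-17 transcripts. The test called 380 of 2726 genes (13.9%), with 186 higher (6.82%) and 194 lower (7.12%). The other T cells are a mixture, in which 636 barcodes held Trdc and 1270 held none of Cd4, Cd8a, Cd8b1, Foxp3 and Trdc. Of those 1270, 162 held a Gzmk UMI. The other T cells also include the 97 barcodes that missed the Gzmk-detected Gzmb-undetected class only for want of a CD8 UMI. With only Cd4-detected cells as other T cells 99 genes were called. Of the 59 named genes called here, 49 could be tested against those, and 27 remained called. Without replicate 1 the test called 131 genes, and without UMIs of the gate's myeloid genes 154. Several of these traits were shared by the other CD8 classes. Nkg7 was detected in 97.5% of the Gzmk-detected Gzmb-undetected, 91.2% of the neither-granzyme and 96.4% of the Gzmb-detected CD8 cells, against 34.8% of other T cells. In the same order Klrc1 was detected in 34%, 36.2%, 34.8% and 11.3%, and Il17a in 0%, 2.02%, 1.90% and 25.4%. For Birc5 the other CD8 classes lay between, at 11%, 5.15%, 6.19% and 1.97%.

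Of 9 tested cytotoxic genes 5 were higher and 0 lower. Nkg7 measured 3777, 3803 and 3250.3 CPM in the Gzmk-detected Gzmb-undetected cells, against 859, 1155 and 688 CPM in other T cells. The gap was many times the spread (log2 difference 1.98 ± 0.13, adjusted p = 4.69e-08). Ifng, the cytokine interferon gamma, measured 87.8, 154 and 165 CPM, against 24.4, 36.7 and 14.2 CPM (log2 difference 2.33 ± 0.40, adjusted p = 0.000638). With Cd4-detected other T cells the Ifng difference was 0.74 and was not called. The granule protease gene Ctsw (log2 difference 1.10 ± 0.15, adjusted p = 7.94e-05), the cystatin Cst7 (1.20 ± 0.27, adjusted p = 0.00546) and the death ligand Fasl (1.66 ± 0.28, adjusted p = 0.00056) were also higher.

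Effector-memory genes were higher in 8 of 13 cases, with a median log2 difference of 1.61. Slamf7, a SLAM-family receptor of killer cells, measured 87.8, 58.6 and 52.0 CPM, against 10.5, 10.2 and 10.2 CPM (log2 difference 2.61 ± 0.45, adjusted p = 0.000638). Eomes, with the values given above, stood against 15.7, 25.8 and 8.13 CPM in other T cells (2.44 ± 0.47, adjusted p = 0.00161), and was not called when cells were thinned to 1 depth or replicate 1 was left out. The chemokine receptor Cxcr3 measured 205, 161 and 104 CPM, against 44.4, 57.8 and 16.3 CPM (1.91 ± 0.42, adjusted p = 0.00417). None of these 3 overlapped between the classes.

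Ccl5 stood against 5711, 6376 and 3044 CPM in other T cells (log2 difference 1.77 ± 0.22, adjusted p = 2.82e-05). Ly6c2, a surface protein of memory CD8 cells, measured 761, 1714 and 745 CPM, against 243, 330.2 and 211 CPM (2.01 ± 0.26, adjusted p = 3.2e-05). Ly6c2 was detected in 104 of the 200 cells and the tissue-homing receptor Cxcr6 in 94, with 52 holding both and 54 holding neither. Whether the 2 genes occur together was not tested. Of 6 killer-cell receptor and adaptor genes 3 were higher and 1 lower. The inhibitory receptor subunit Klrc1 measured 429, 439.6 and 329 CPM, against 85.4, 107 and 81.3 CPM (2.09 ± 0.24, adjusted p = 1.65e-05), separate in all libraries. The signalling adaptor Fcer1g was lower at -1.22 ± 0.31 (adjusted p = 0.0105), and was 0.26 and not called with Cd4-detected other T cells.

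**Figure D4:**
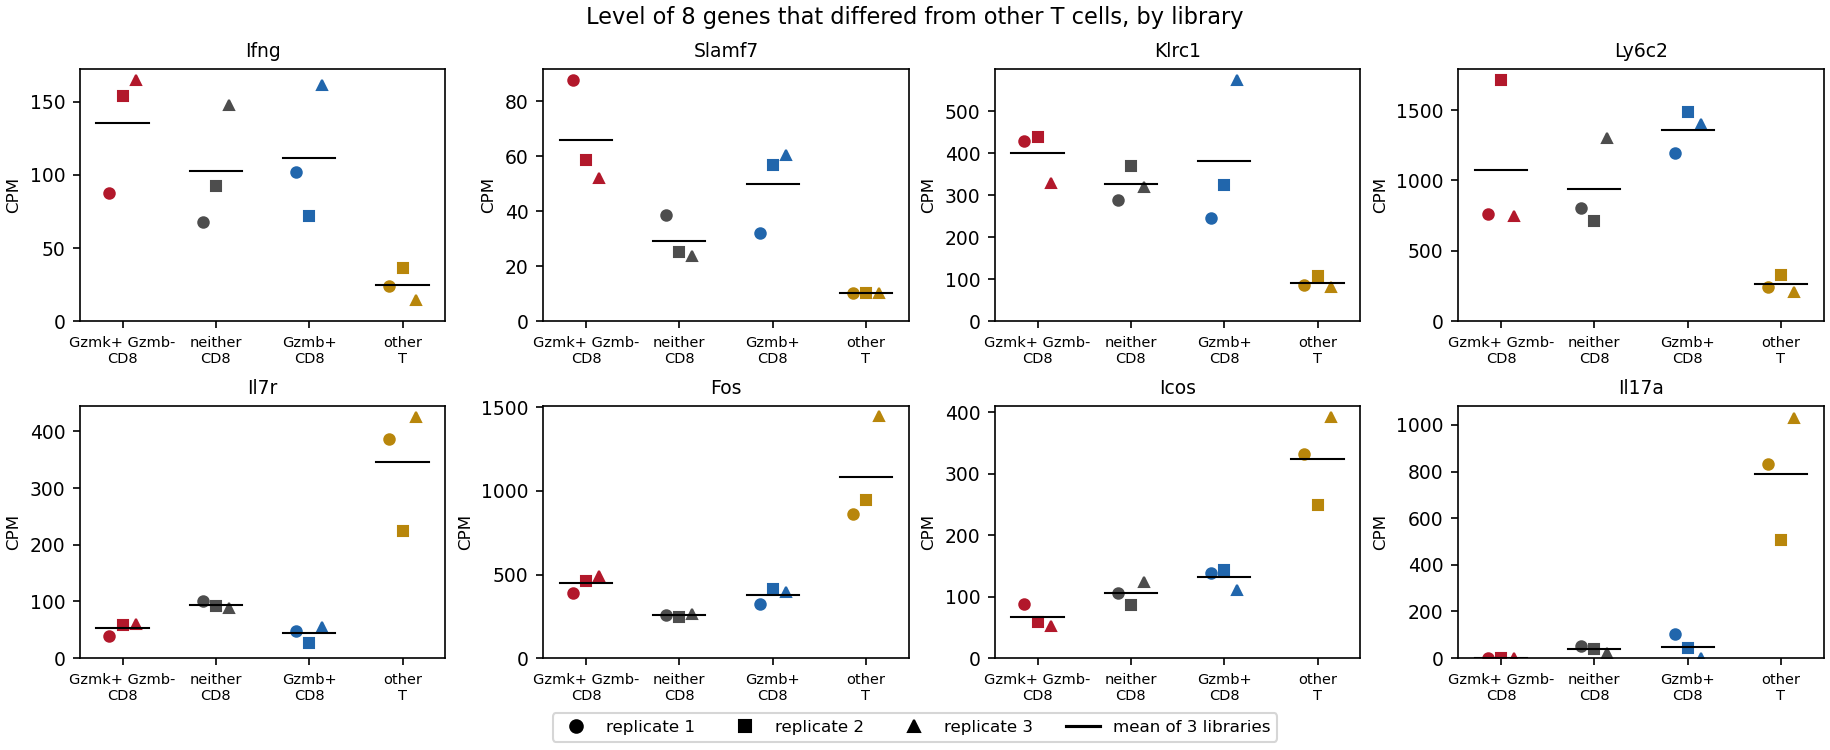
Level of 8 genes called between the Gzmk-detected Gzmb-undetected cells and other T cells (CPM, vertical axes starting at 0) in 4 classes of T-cell barcodes; points are the 3 libraries and bars their means. Ifng, Slamf7, Klrc1 and Ly6c2 are higher and Il7r, Fos and Icos lower in every library, and Il17a is at 0 in the Gzmk-detected Gzmb-undetected cells.

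Of 17 interferon-stimulated genes 12 were higher (median 0.85). Ly6a, the stem-cell antigen Sca-1, measured 908, 857 and 546 CPM, against 258, 385 and 149 CPM (log2 difference 1.52 ± 0.27, adjusted p = 0.000837). Zbp1, a nucleic-acid sensor, measured 312, 418 and 208 CPM, against 121, 145 and 123 CPM (1.26 ± 0.25, adjusted p = 0.00193). Both were higher in every library than in any library of other T cells. Of 17 proliferation genes 12 were higher (median 1.68). The histone gene Hist1h2ap measured 634, 315 and 1014 CPM, against 56.6, 122 and 64.0 CPM (2.99 ± 0.44, adjusted p = 0.000148), with its 225 UMIs in 16 of the 200 cells. The mitotic survivin gene Birc5 measured 195, 73.3 and 338 CPM, against 34.0, 36.0 and 11.2 CPM (2.84 ± 0.55, adjusted p = 0.00181). Top2a, a topoisomerase of dividing cells, was detected in 21 of the 200 and Birc5 in 22, with 14 holding both.

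Il7r, the receptor for interleukin-7, measured 39.0, 58.6 and 60.7 CPM in the Gzmk-detected Gzmb-undetected cells, against 387, 225 and 425 CPM in other T cells (log2 difference -2.66 ± 0.27, adjusted p = 5.46e-06), and was called in 16 of 16 alternatives. With Tcf7 (-1.55 ± 0.42, adjusted p = 0.0171), Klf2 (-0.97 ± 0.26, adjusted p = 0.0145) and the egress receptor S1pr1 (-1.30 ± 0.37, adjusted p = 0.0255) it made up the 4 lower of 10 naive and memory genes, while Ly6c1 was higher. Of 10 checkpoint genes 2 were higher, Tox and Nr4a2, and 1 lower, Tnfrsf4. Tox, an exhaustion-associated factor, measured 58.6, 132 and 182 CPM, against 46.2, 74.7 and 66.1 CPM, overlapping (0.96 ± 0.26, adjusted p = 0.0168), and was -0.15 with Cd4-detected other T cells. Pdcd1, which encodes PD-1, was detected in 25 of the 200 cells and Tox in 31, with 11 holding both. Icos measured 332, 249 and 393 CPM in other T cells (-2.31 ± 0.26, adjusted p = 1.23e-05), against which the 3 values given above all lay lower.

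Immediate-early genes were lower in 11 of 14 cases, with a median log2 difference of -1.49. Fos, with the values given above, stood against 865, 946 and 1448 CPM in other T cells (log2 difference -1.28 ± 0.15, adjusted p = 1.65e-05), but differed by -0.04 from Cd4-detected other T cells. Junb, another AP-1 subunit, measured 703, 1055 and 546 CPM, against 2228, 1932 and 2834 CPM (-1.61 ± 0.19, adjusted p = 1.87e-05). Nfkbia, the inhibitor of NF-kB, measured 195, 154 and 156 CPM, against 548, 542 and 632 CPM (-1.81 ± 0.25, adjusted p = 6.63e-05). Junb and Nfkbia were called in every alternative run, Cd4-detected other T cells included.

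The T-cell receptor signalling list had 12 of 24 genes higher and 1, Icos, lower (median 0.54). Ms4a4b stood against 488, 705 and 462 CPM in other T cells (log2 difference 1.89 ± 0.17, adjusted p = 1.83e-06), well below its values above. Of 17 transcription factors 3 were higher (Eomes, Tox and Nr4a2) and 4 lower (Tcf7, Klf2, Ikzf2 and Bhlhe40). Ikzf2, the Helios factor, measured 97.6, 51.3 and 26.0 CPM, against 169.9, 251 and 200.2 CPM, without overlap (-1.93 ± 0.41, adjusted p = 0.00355). Of 9 cytokine genes 3 were higher (Ccl4, Ccl5 and Ifng) and 1 lower, Tnf, which encodes tumour necrosis factor, at 29.3, 14.7 and 0 CPM, against 66.2, 51.0 and 99.6 CPM (-2.32 ± 0.53, adjusted p = 0.00617). Of 13 homing genes 3 were higher, Cxcr3 and Itga4 among them, and S1pr1 was lower. Of 8 tissue-residency genes Cd7 was higher, and Cd69 and Bhlhe40 were lower. Ribosomal protein genes, called lower in 15 of 81 cases, had a median log2 difference of -0.11.

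Several genes of gamma-delta and interleukin-17 T cells were at 0 in all 200 cells. Il17a had 0 UMIs, against 2712 UMIs in other T cells (833, 505 and 1029 CPM), which makes it at least 88.9-fold lower when 3 counts over the class are taken as the limit. By the same measure the scavenger receptor Cd163l1 (467 UMIs) was at least 15.3-fold lower, the kinase Blk (419 UMIs) at least 13.7-fold, Ly6g5b (416 UMIs) at least 13.6-fold and the TNF receptor Tnfrsf25 (388 UMIs) at least 12.7-fold lower. Tcrg-C1 measured 48.8, 29.3 and 17.3 CPM, against 667, 275 and 626 CPM (log2 difference -4.02 ± 0.34, adjusted p = 9.18e-07), and -0.80, not called, against Cd4-detected other T cells. Of 7 tested gamma-delta and interleukin-17 markers 6 were lower, and of 6 tested CD4 and regulatory T-cell markers 5 were lower. The gate asked for a CD8 UMI and for 0 UMIs of Cd4 and Foxp3, whereas other T cells were drawn by the lack of CD8. These marker counts therefore partly follow from how the classes were drawn and do not check the label. Il2ra, a subunit of the interleukin-2 receptor, was at 0, against 236 UMIs.

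Outside the CD8 gate, Gzmk was found most often in T cells without a lineage transcript. It was detected in 13.0%, 13.3% and 10.3% of T cells with none of Cd4, Cd8a, Cd8b1, Foxp3 and Trdc (162 of 1270, 12.8%). The shares in other T cells were lower, at 4.29% of Cd4-detected Foxp3-undetected cells (6 of 140) and 0.472% of Trdc-detected cells (3 of 636). None of 38 Foxp3-detected T cells held a Gzmk UMI, which allows a share of cells with a UMI of up to 7.89% by 3 counts of the total and up to 9.25% by the 95% Clopper-Pearson interval. In myeloid cells, which should lack Gzmk, it was detected in 0.132% of neutrophil-gate barcodes (6 of 4539, median 951 UMIs) and 0.22% of macrophage-gate barcodes (4 of 1820, median 4514 UMIs). The median depth was 1358.5 UMIs in the Gzmk-detected Gzmb-undetected class, against 1266 in the T cells without a lineage transcript.

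**Figure D5:**
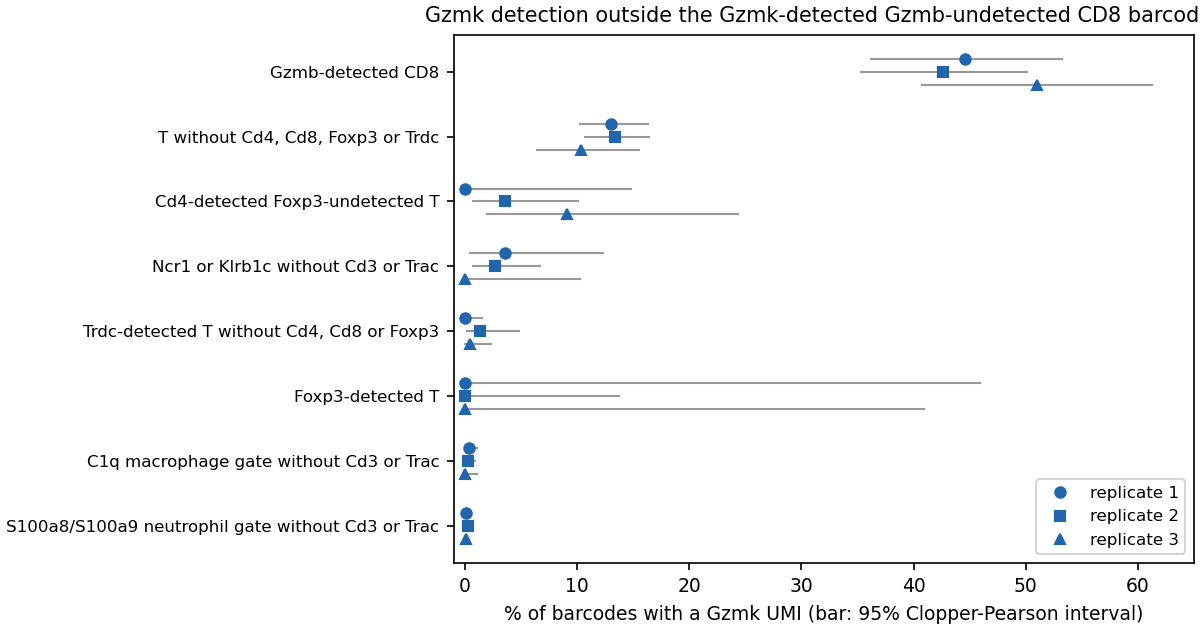
Percentage of barcodes with at least 1 Gzmk UMI (horizontal axis) in 8 populations outside the Gzmk-detected Gzmb-undetected CD8 cells; points are the 3 libraries and bars 95% Clopper-Pearson intervals, which cover counting error only. Gzmb-detected CD8 cells lie highest, T cells with none of Cd4, Cd8a, Cd8b1, Foxp3 and Trdc next at 10.3% to 13.3%, and the myeloid gates at or below 0.302%.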

How the data were processed

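The deposited matrices give raw UMI counts for 28692 genes in each barcode, whole numbers without normalisation. The submitters' processing notes name Seurat, Cell Ranger and mm10, and their versions were not given in the sources used here. Per the file headers, software version 3.0.0 wrote the matrices. Per the labels, a 5′ kit was used, while a 3′ protocol is also mentioned, so the end of the transcript that was counted is unknown.

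Of all barcodes, 14226 had 200 genes or more and no more than 10% mitochondrial UMIs. Scrublet (scanpy 1.11.5, Python 3.11.15) called 1 barcode (0.00703%) and so has not worked; an alternative leaves out the 153, 289 and 118 highest scores. Of all barcode sequences 91 occur in more than 1 library, 4 of them among the 200 cells, with none shared between those cells.

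UMIs were summed per library and class, and edgeR 4.0.16 (quasi-likelihood test, limma 3.58.1, R 4.3.3) was fitted to 4 classes in 3 libraries with TMM, filterByExpr and the library as a block, since each library gives a sum to every class. Genes of the gate and mitochondrial genes stayed out of the tests. The SE is the log2 difference over the root of F. The fit was also run on simulated counts with a fixed spread and no library effect, for the comparison with the neither-granzyme class alone. Such counts cannot show how the fit behaves on the sparse real sums. DESeq2 1.42.0 and other settings were alternatives. Where 2 antisense or near-identical genes could share reads, the counting is not stated.

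Named genes were the 10 highest and 10 lowest calls against CD8 with neither granzyme and the 5 highest and 5 lowest in the other comparisons, with adjusted p under 0.05, 3 of 3 libraries in 1 direction and a mean log2 CPM of 5 or more. Gate, predicted, ribosomal, mitochondrial and receptor-segment genes were excepted. Each of 13 lists added up to 4 called genes, or its 2 genes of lowest p if it had no call. The cells, lists (204 genes, 202 in the files, 149 tested) and 9 marker sets were chosen with earlier results of these data known. Gene coordinates are from GENCODE M21, matched by identifier (104 of 104). V segments were too sparse to describe. A few items withheld for evaluation are not reported here.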

Additional observations from a re-analysis of the deposited data

Results flagged for a closer look

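Gzmk was detected outside the CD8 gate in barcodes that the comparisons do not use as a class of their own. Of T cells with none of Cd4, Cd8a, Cd8b1, Foxp3 and Trdc, 12.8% held a Gzmk UMI (162 of 1270, 95% Clopper-Pearson interval 11.0 to 14.7), against 0.132% of neutrophil-gate barcodes. Of barcodes with Ncr1 or Klrb1c and no Cd3 or Trac transcript, 2.5% did (6 of 240, interval 0.923 to 5.36), with 2 in replicate 1, 4 in replicate 2 and 0 in replicate 3.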

How the results depend on the processing

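Calls against CD8 cells with neither granzyme numbered 68 and ranged from 0 to 76 when 1 library was left out. They numbered 37 with library totals, 154 with no filter on low counts, 0 with only the 2 classes compared, 6 without myeloid UMIs and 121 with at least 2 Gzmk UMIs. DESeq2 called 78 and RLE scaling 67, of which 22.4% were higher, against 14.7% with TMM and 51.4% with library totals. The library is the replicate block, since both sums of a pair come from 1 library; without the replicate block 12 genes were called against CD8 cells with neither granzyme, 0 against Gzmb-detected CD8 cells and 350 against other T cells.

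Calls against Gzmb-detected CD8 cells numbered 10 with no filter and 1 with only the 2 classes compared, and 0 to 5 when 1 library was left out. Calls against other T cells numbered 631 with no filter, 234 when cells were thinned to 1 depth, 154 without myeloid UMIs and 99 with Cd4-detected other T cells, and 131 to 397 when 1 library was left out. The share of the CD8 gate, 17.2%, was 5.76% with at least 2 Gzmk UMIs. It was 13.7% after thinning, which left out barcodes below 1000 UMIs. Tox (-0.15) and Fcer1g (0.26) reversed against Cd4-detected other T cells. Over the named genes, 2008 alternative values were computed. Of these 191 lost their call and 33 gained one, with the sign kept, 2 called values reversed, and 1782 stayed on their side of the threshold. Among those 1782 the sign changed in 32 values of 18 results, called in neither fit. The cause of these changes was not tested, except that fewer cells, libraries or genes enter some fits by construction. Thinning also redraws the CD8 classes by construction. Depth limits the sparse genes: 66.5% of the 200 cells rest on 1 Gzmk UMI.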
